A study of Mus musculus with 6 samples.

Results

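Ephrin, semaphorin and other axon guidance genes were examined in human leukemic cells grown in mice. Members were the rows of the deposited expression table whose gene symbol belongs to the Eph receptors, ephrins, semaphorins, plexins, neuropilins, Robo receptors, Slits, UNC5 receptors, netrins, RGM proteins, neogenin or DCC. The symbol rule took 29 of 13892 rows, and no measured value entered it. Of these, 8 belonged to the Eph and ephrin families, 17 to the semaphorins, plexins and neuropilins, and 4 to the Robo, Slit and UNC5 rows. Netrins, RGM proteins, neogenin, DCC and the UNC5 receptors themselves were not analysed here, nor were ephrins other than EFNB1. The rule also took 3 rows that are not guidance receptors or ligands: EPHA1-AS1, a transcript antisense to an Eph receptor gene, UNC50, a membrane protein that shares only the letters of its symbol with the netrin receptors, and UNC5CL, which resembles the cytoplasmic part of the UNC5 receptors.

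The libraries came from leukemic stem cells (LSC) and bulk leukemic cells of the same marrow. Acute myeloid leukemia (AML) arose in NSG mice, an immunodeficient strain, after human hematopoietic stem cells had been transduced with NPM1c, a cytoplasmic mutant of nucleophosmin, and every library carries that transgene. LSC were sorted on GFP, CD33 and CD123 and bulk cells on GFP and CD33, with GFP standing for NPM1c expression, CD33 a myeloid antigen and CD123 the alpha chain of the interleukin 3 receptor. Marrow of 3 mice at the moribund stage, 1 for each transduction, gave 3 LSC and 3 bulk libraries, and libraries with the same replicate number share a mouse. The bulk gate made no statement on CD123, so bulk cells may include cells of the LSC gate. The age of the mice is not given in the labels. The labels give the mouse host as organism, whereas symbols and build are human.

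Guidance genes were named for steering growing axons, and the same ligand and receptor pairs act between other cells, including those of marrow and the immune system. Ephrins are bound to the membrane and are read by Eph receptor kinases on the neighbouring cell. Semaphorins are secreted or membrane-bound ligands that bind plexins, with neuropilins as partner receptors for the secreted kind, and Slits are secreted ligands of Robo receptors. Activated receptors act on the cytoskeleton through small GTPases. NRP1 is also known as the plasmacytoid dendritic cell antigen BDCA-4.

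The 6 libraries held 10669560 to 14933494 reads, and 10 MTRNR2L rows (nuclear copies of mitochondrial rRNA) took 27.2% to 70.0% of them. Bulk replicate 1, with the highest such share, kept 3423878 reads outside these rows, and the remaining libraries kept 6132431 to 9571165. Levels below are CPM, that is, reads scaled to the authors' normalized library size. In bulk replicate 1, 3 reads equal 0.514 CPM, and in the 5 other libraries 0.190 to 0.254 CPM. These floors and the counting intervals below cover counting error only, because cDNA was amplified and no tagging of molecules is described. CPM is not scaled by gene length, so levels are compared between libraries for 1 gene and not between genes. Each library holds RNA of many cells, and more cells of a type cannot be told apart from more RNA per cell.

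Cell type markers were read first, since the gates and the labels name cell types. IL3RA, which encodes CD123, stood at 140, 48.0 and 135 CPM in LSC replicates 1, 2 and 3, against 1.54, 2.12 and 2.37 CPM in bulk. Of 20 plasmacytoid dendritic cell markers, IL3RA among them, 16 were higher in LSC and none lower. The shares over all genes tested were 2.71% and 1.33%. IL3RA encodes the antigen of the LSC gate, so its rise is no separate result. GZMB, LILRA4, PACSIN1, PTCRA and SCT were under 1 CPM in every bulk library. They passed the filter of 1 CPM in at least 3 libraries through LSC alone and so had to differ. The summed level of the 20 markers was 2559 to 4081 CPM in LSC, against 632 to 799 CPM in bulk. Of these 20, SCT alone had no read in bulk. CYBB alone gave 475, 485 and 326 CPM of the sum in bulk replicates 1, 2 and 3. In LSC it stood at 521, 464 and 379 CPM, and its change did not pass (limma adjusted p = 0.871). Summed levels ran from 1342 to 3230 CPM in LSC, against 3574 to 5609 CPM in bulk, for 10 monocyte markers, and from 185 to 1797 CPM, against 268 to 5139 CPM, for 18 granule and neutrophil markers. LYZ made the largest part of the monocyte sum, at 1045, 2210 and 855 CPM in LSC and 2505, 4500 and 3976 CPM in bulk. Of 9 monocyte markers tested, 6 had a negative log2 change and 3 a positive one, and CD36 and CD68 were wholly higher in LSC. For 14 B cell markers the summed levels were 81.1 to 97.3 CPM in LSC, against 247 to 1726 CPM in bulk, and for 15 erythroid markers 79.6 to 661 CPM, against 478 to 2000 CPM. For 7 megakaryocyte and 9 T and NK cell markers the ranges of the populations lay at 29.5 to 66.1 and 115 to 143 CPM in LSC, against 27.9 to 66.8 and 81.2 to 115 CPM in bulk. Few markers of the classic guidance tissues were analysed: 4 of 10 endothelial markers, at 101 to 152 CPM in LSC and 145 to 211 CPM in bulk, and 2 of 12 neural ones, at 5.25 to 5.96 and 2.20 to 3.25 CPM. No marker in these lists was at 0 in all LSC libraries.

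The comparison of LSC with bulk asked which guidance genes mark the CD123-gated cells. The largest increases, those of EPHA2, EPHB1, PLXNA4 and NRP1, belonged to receptors. With 0 to 35 reads over the bulk libraries, these genes rose to means of 25.7 to 74.4 CPM in LSC. PLXNB2 and UNC5CL rose by 1.68 and 2.88 on the log2 scale. The ligands SEMA3C and SEMA7A changed by 2.28 and 2.18 and did not pass without the mouse as a block (limma adjusted p = 0.0859 and 0.0850). In all, 6 of 29 members were higher in LSC and 0 were lower (limma on log2 CPM, Benjamini-Hochberg adjusted p under 0.05), against 2.71% and 1.33% of all 13755 genes tested. At an unadjusted p under 0.05, 9 members were higher in LSC and 1, SEMA4B, was lower. Of all 13755 genes tested, 1402 were higher and 1383 lower at that cut. The voom fit called 5 members higher and 0 lower, beside 318 and 158 of all genes. With the mouse as a block, 9 members were higher and 1 was lower, against 8.25% and 7.71% of all genes. LSC and bulk libraries did not overlap for 12 members, all higher in LSC, against 13.2% of genes wholly higher and 11.9% wholly lower. The summed plasmacytoid markers were also higher in LSC than in bulk, and the part of these markers in the changes of the members was not tested.

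All 29 members passed the filter of 1 CPM in at least 3 libraries. EPHA2, EPHB1 and PLXNA4, 3 members in number, passed it through the LSC libraries alone and so had to differ, whereas 14 members were at 1 CPM or more in all 6 libraries. Counts over the members are therefore given as a description. The median log2 change of the members was 0.67, with 0.98, 0.71 and 0.97 in mice 1, 2 and 3, beside -0.0036 over all genes tested. Of the 14 receptors 5 rose without the block, with a median of 1.48. Of the 12 ligands 0 passed in limma without the block or in voom, with a median of 0.49. With the block 5 receptors were higher, and 2 ligands were higher and 1 was lower. At an unadjusted p under 0.05 the counts were the same. Of all 13755 genes tested, 1402 were higher and 1383 lower at that cut. Whether receptors and ligands differ was not tested.

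**Figure D1:**
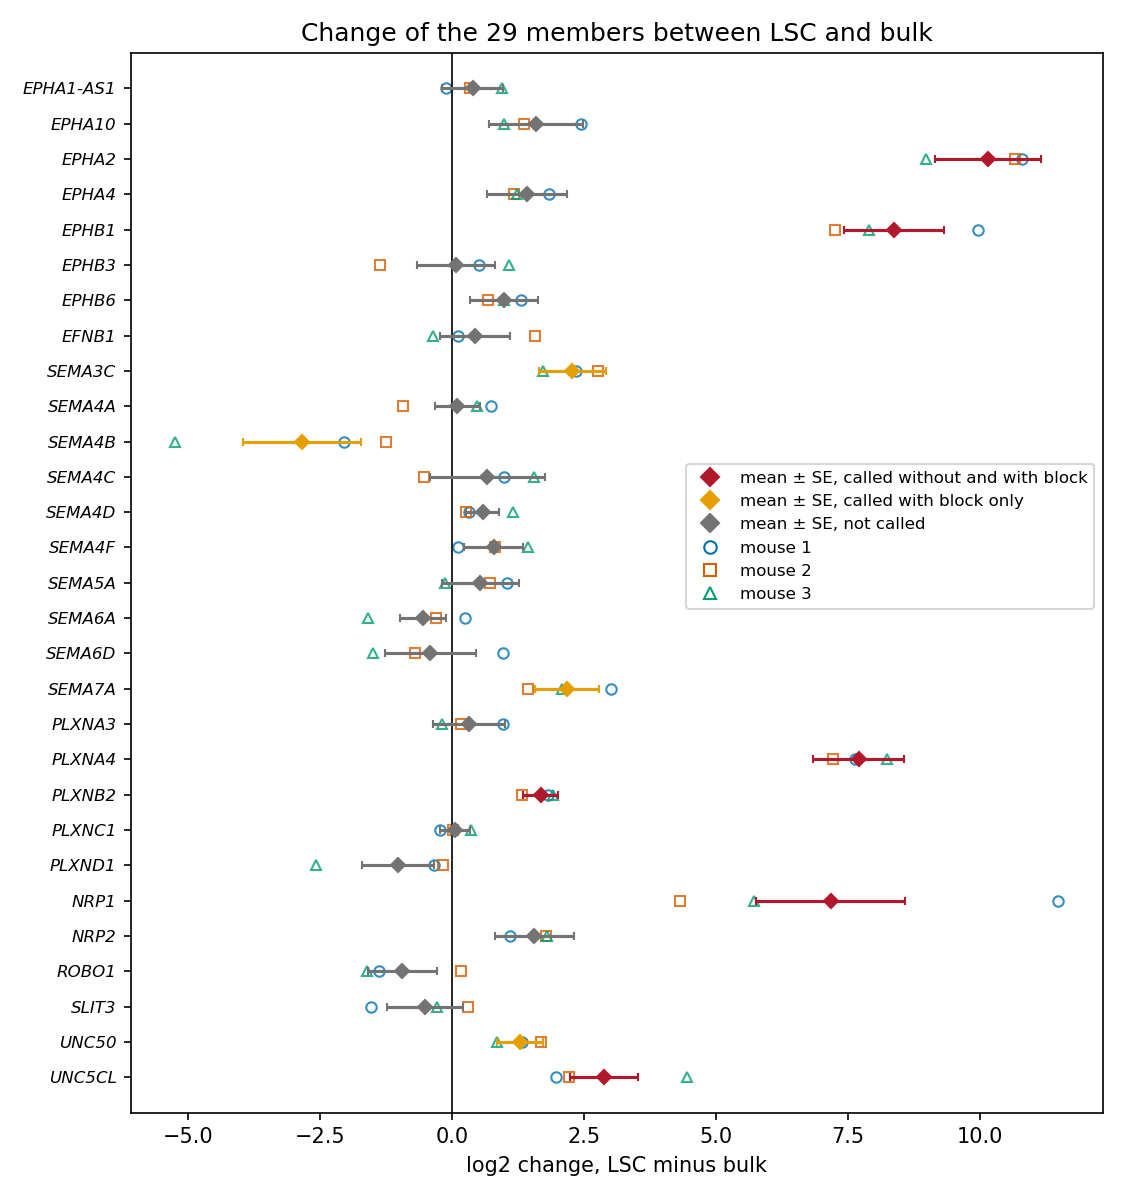
Log2 change of LSC minus bulk (horizontal axis) for the 29 members (vertical axis, in order of family). Filled diamonds are the change ± SE of the limma fit without the block, colored by the call. Open symbols are the difference within each mouse. Diamonds of EPHA2, EPHB1, PLXNA4 and NRP1 lie beyond 7 on the log2 scale, and those of the other members lie between -2.85 and 2.88. Single mice lie outside these ranges, among them NRP1 at 4.32 and 5.72 in mice 2 and 3, and SEMA4B at -5.25 and UNC5CL at 4.46 in mouse 3.

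Summed over all 29 members, guidance transcripts took 501, 462 and 432 CPM in LSC replicates 1, 2 and 3, against 201, 225 and 213 CPM in bulk. EPHA2, EPHB1, PLXNA4 and NRP1 made up 43.4%, 41.1% and 26.7% of this sum in LSC, against 0.255%, 1.16% and 0.481% in bulk. They were set apart as the members with the largest increases, so a low share in bulk follows from that choice. The other 25 members summed to 272 to 317 CPM in LSC and to 201 to 223 CPM in bulk. These sums are of CPM and weight long genes more, and they were not tested.

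Among the Eph receptors, EPHA2 and EPHB1 were read almost only in LSC. EPHA2, a receptor mainly of A-class ephrins, stood at 35.2, 32.0 and 9.92 CPM in LSC replicates 1, 2 and 3 and had no read in any bulk library. Over the groups that is 1117 reads in LSC and 0 in bulk, so the mean level was at least 80.4-fold higher in LSC, taking 3 reads in each bulk library as the limit. Its adjusted p was 0.00109 in limma, and it was higher in 3 of 3 mice. The call was lost without both libraries of mouse 1 (log2 change 9.83, adjusted p = 0.0659). LSC replicate 3 held the lowest of the LSC values.

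EPHB1, a receptor of B-class ephrins, stood at 19.7, 29.0 and 35.1 CPM in LSC, against 0, 0.169 and 0.128 CPM in bulk. Its 1204 LSC reads and 4 bulk reads gave a ratio of 233 (95% exact counting interval 90.7 to 856). Here LSC replicate 3 held the highest value, whereas for EPHA2 it held the lowest. The limma adjusted p was 0.00226, and EPHB1 passed in all 21 alternative settings, at an adjusted p of 0.000185 to 0.0420.

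The other Eph receptors differed less between populations. EPHA4, which binds ephrins of both classes, stood at 11.0, 4.06 and 2.11 CPM in LSC, against 3.08, 1.78 and 0.896 CPM in bulk. Its values had the same mouse order in both populations, with LSC higher within each mouse although the groups overlapped. The change of 1.41 (SE 0.76, adjusted p = 0.328, 0.0992 with the block) did not pass. EPHA10, a receptor without kinase activity, had a change of 1.59 (adjusted p = 0.351, 0.0613 with the block) and was also higher in 3 of 3 mice.

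EPHB6, the other receptor known to lack kinase activity, was at 2.14, 2.85 and 2.41 CPM in LSC, against 0.856, 1.78 and 1.22 CPM in bulk. Those groups did not overlap, but its change of 0.98 did not pass (SE 0.65, limma adjusted p = 0.426). EPHB3 moved in different directions between mice, with differences of 0.50, -1.36 and 1.08, and a 95% interval of -1.58 to 1.73 around its change of 0.08. EFNB1, a B-class ephrin and the one ligand of these receptors analysed here, was at 1.85, 4.31 and 1.53 CPM in LSC, against 1.71, 1.44 and 1.98 CPM in bulk. Its change was 0.44 (interval -1.04 to 1.92), with LSC replicate 2 above all other libraries.

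EPHA1-AS1 stood at 5.02, 11.5 and 22.5 CPM in LSC, against 5.48, 9.06 and 11.6 CPM in bulk. Its groups overlapped, the mouse took 83.7% of its variance, and its change was 0.39 (SE 0.58, limma adjusted p = 0.740). Without LSC replicate 3 the sign turned, to -0.13. The sources used here do not say whether counting used strand, so reads of the antisense transcript and of the receptor gene itself cannot be told apart.

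**Figure D2:**
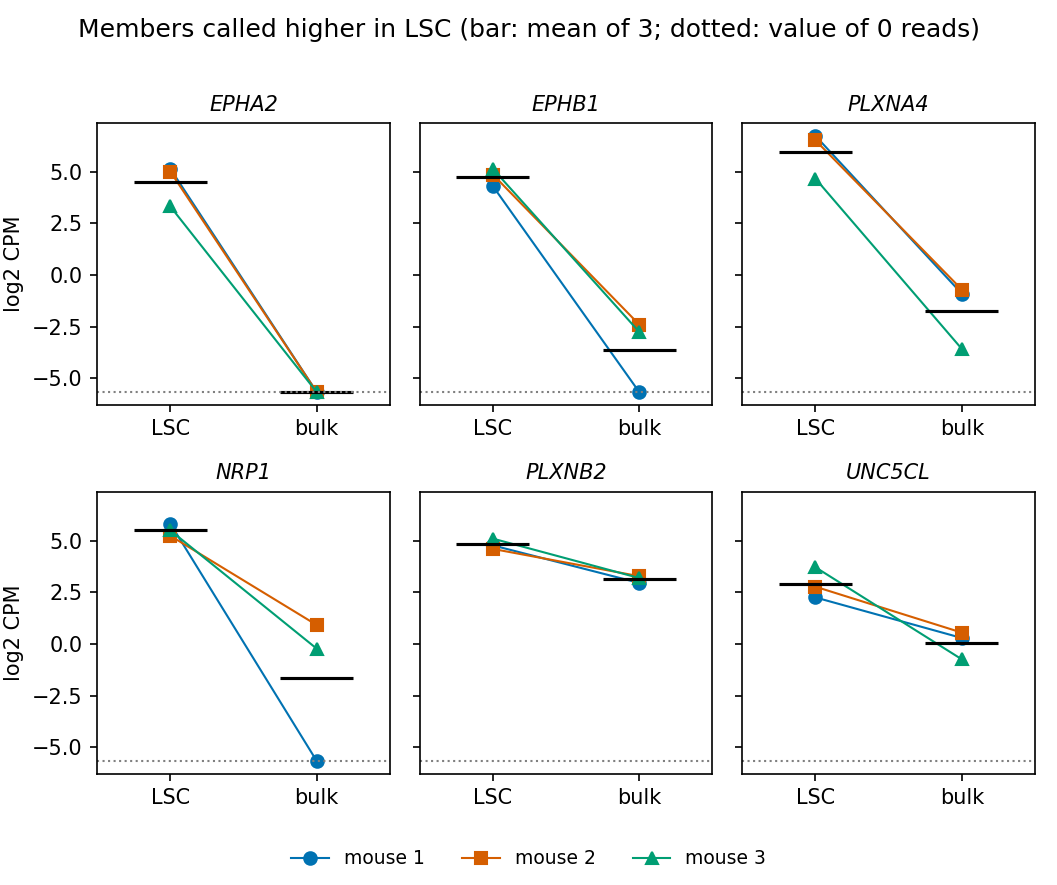
Log2 CPM (vertical axis) of the 6 members higher in LSC, in LSC and bulk libraries (horizontal axis). Symbols joined by a line are the 2 libraries of a mouse, black bars are means of 3, and the dotted line is the value of a library with 0 reads. EPHA2 lies on that line in all 3 bulk libraries, EPHB1 and NRP1 in bulk replicate 1, and the populations overlap in none of the 6.

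Of 5 plexins, the receptors of semaphorins, 2 rose and the others did not pass. PLXNA4, which pairs with neuropilins for secreted semaphorins and binds SEMA6A directly, rose to 106, 91.5 and 25.3 CPM in LSC, against 0.514, 0.593 and 0.0640 CPM in bulk. Both libraries of mouse 3 were the lowest of their population, and the difference within mice was 7.64, 7.22 and 8.24 on the log2 scale. Pooled reads were 3229 in LSC and 11 in bulk, a ratio of 227 (95% exact counting interval 127 to 455). The limma adjusted p was 0.00199, and the call was lost without both libraries of mouse 1 (log2 change 7.73, adjusted p = 0.0659).

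PLXNB2, a receptor of class 4 semaphorins, stood at 27.2, 24.2 and 34.1 CPM in LSC, against 7.70, 9.65 and 9.08 CPM in bulk. Libraries of a population lay close together, and the population took 95.8% of the variance of PLXNB2. The log2 change of PLXNB2 was 1.68 (SE 0.33, limma adjusted p = 0.0266). This call was lost without LSC replicate 1 or 3 or bulk replicate 1 or 2, and without any mouse, at changes of 1.54 to 1.86 and adjusted p of 0.0688 to 0.233, and with eBayes without trend (0.0554).

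The remaining plexins did not pass. PLXNC1, the receptor of SEMA7A, stood at 60.7, 52.2 and 73.5 CPM in LSC, against 71.4, 51.3 and 57.7 CPM in bulk, and the groups overlapped throughout. Its log2 change of 0.05 had a 95% interval of -0.60 to 0.69, and its sign turned in 4 of 21 alternative settings. PLXND1, a receptor of secreted semaphorins, was at 5.91, 11.1 and 1.53 CPM in LSC, against 7.53, 12.4 and 9.28 CPM in bulk. The low value is LSC replicate 3, and the change of -1.03 did not pass (SE 0.68, limma adjusted p = 0.429). PLXNA3 had 1.68 to 1.71 CPM in LSC and 0.856 to 1.92 CPM in bulk.

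Both neuropilins were wholly higher in LSC, and NRP1 passed. NRP1, a receptor of secreted semaphorins and of VEGF as well as a plasmacytoid antigen, rose to 56.5, 37.5 and 45.0 CPM in LSC, against 0, 1.86 and 0.832 CPM in bulk. Bulk replicate 1, the library with the fewest reads outside MTRNR2L, had no NRP1 read, so the difference of 11.5 in mouse 1 rests on the prior that the authors' values contain. In mice 2 and 3 the differences were 4.32 and 5.72.

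Over all libraries NRP1 changed by 7.18 (SE 1.41, limma adjusted p = 0.0262), beside 5.17 without bulk replicate 1 (adjusted p = 0.00194). The ratio of pooled NRP1 reads, 1973 in LSC and 35 in bulk, was 43.6 (95% exact counting interval 31.2 to 62.8). Its call was lost without any single LSC library and without mouse 2 or mouse 3, at changes of 7.02 to 8.61 and adjusted p of 0.0572 to 0.0844, and with eBayes without trend (0.0795). NRP2, the second receptor of this kind, was at 2.59, 2.09 and 1.82 CPM in LSC, against 1.20, 0.593 and 0.512 CPM in bulk. Its change of 1.56 did not pass (SE 0.75, limma adjusted p = 0.279, 0.199 with the block).

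No semaphorin passed in the fit without the block, and 3 passed with it. SEMA3C, a secreted semaphorin read by neuropilins and plexins, stood at 14.0, 7.04 and 16.1 CPM in LSC, against 2.74, 1.02 and 4.86 CPM in bulk. Mouse 2 was lowest and mouse 3 highest in both populations. The log2 change of 2.28 (SE 0.64) had a limma adjusted p of 0.0859 without the block and 0.00898 with it.

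SEMA7A, a lipid-anchored semaphorin that binds PLXNC1 and beta 1 integrin, stood at 20.9, 9.70 and 5.76 CPM in LSC, against 2.57, 3.56 and 1.34 CPM in bulk. The groups did not overlap, and LSC replicate 1 was the highest library. Its change of 2.18 (SE 0.61) had a limma adjusted p of 0.0850, and 0.0153 with the block.

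SEMA4B, a transmembrane semaphorin, was the one member called lower, and only with the block. It stood at 1.18, 5.39 and 0.146 CPM in LSC, against 4.97, 12.9 and 6.27 CPM in bulk. The LSC value of mouse 2 lay above the bulk value of mouse 1, so the groups overlapped, although LSC was lower within each mouse. Its change was -2.85 (SE 1.12, limma adjusted p = 0.196, 0.0395 with the block). LSC replicate 3 held 2 reads, and without it the unblocked change was -1.54 (adjusted p = 0.373).

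**Figure D3:**
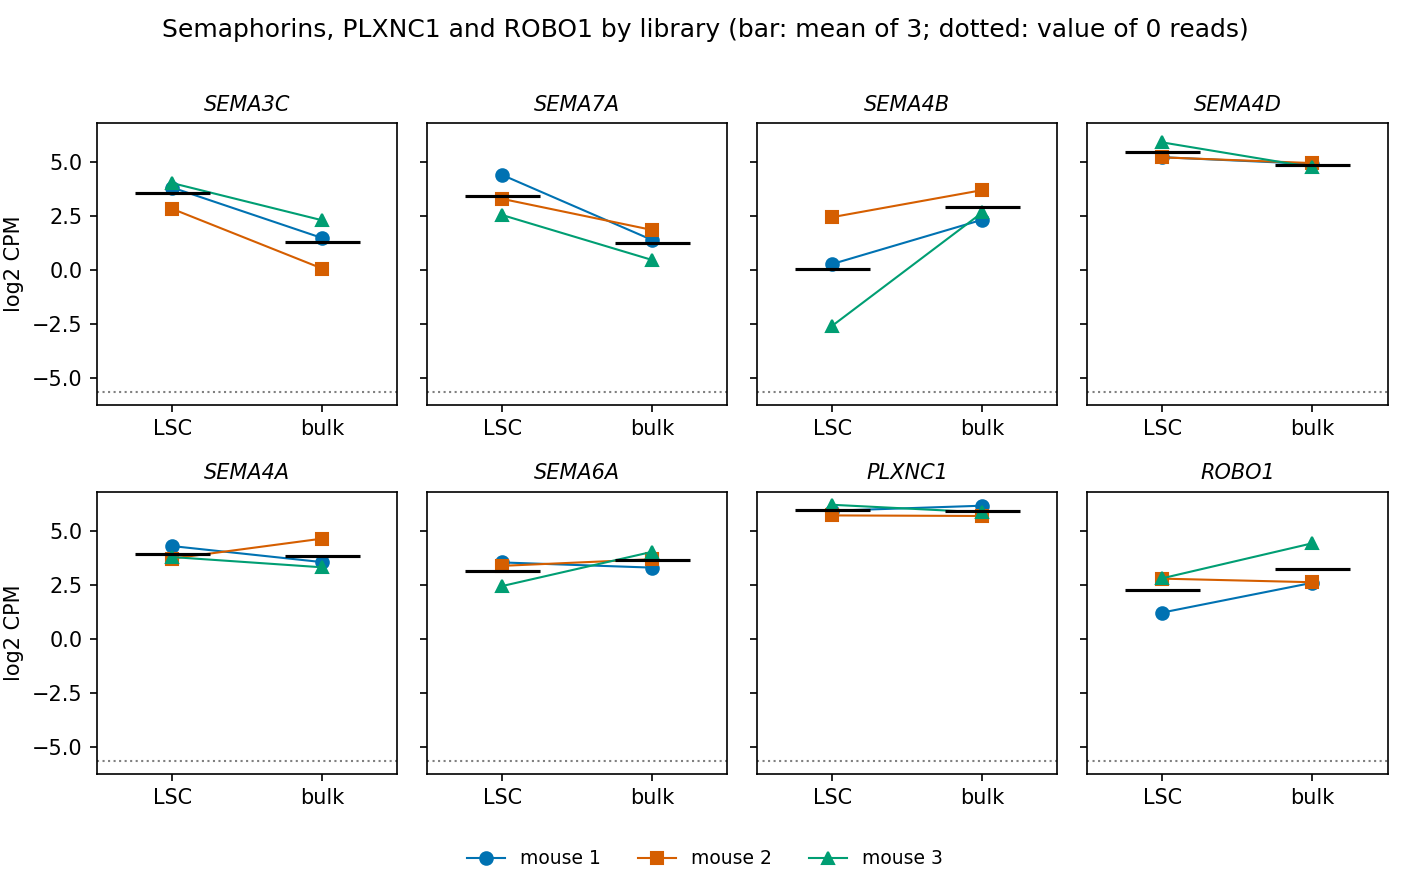
Log2 CPM (vertical axis) of 6 semaphorins, PLXNC1 and ROBO1 in LSC and bulk libraries (horizontal axis). Lines join the libraries of a mouse, black bars are means of 3, and the dotted line marks 0 reads. SEMA3C and SEMA7A slope down from LSC to bulk in all 3 mice and SEMA4B slopes up, while LSC minus bulk is -0.23 to 0.35 within mice for PLXNC1.

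SEMA4D, known in immune cells as CD100, a ligand of CD72 and B plexins, stood at 37.0, 36.8 and 59.6 CPM in LSC, against 29.8, 30.7 and 26.8 CPM in bulk. The groups did not overlap, and the difference within mouse 2 was 0.26 on the log2 scale, beside 1.15 in mouse 3. The change of 0.58 did not pass (SE 0.31, limma adjusted p = 0.334, 0.173 with the block). SEMA4A, another semaphorin of immune cells, stood at 19.5, 13.1 and 13.7 CPM in LSC, against 11.6, 24.8 and 9.85 CPM in bulk. Its change of 0.10 had a 95% interval of -0.87 to 1.07 and a sign that turned in 6 of 21 alternative settings.

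SEMA6A, a transmembrane ligand of A plexins that include PLXNA4, stood at 11.5, 10.3 and 5.40 CPM in LSC, against 9.76, 12.8 and 16.2 CPM in bulk. Mouse 3 held both the lowest and the highest library. Its change was -0.55 (SE 0.43, limma adjusted p = 0.504). SEMA4C, SEMA4F, SEMA5A and SEMA6D were low, with means of 1.54 to 7.83 CPM in LSC and 1.56 to 4.04 CPM in bulk. Their changes were 0.67, 0.78, 0.54 and -0.41, none of which passed with or without the block. SEMA4C followed the mouse, which took 86.6% of its variance, and in mouse 3 stood at 1.17 CPM in LSC, against 0.384 CPM in bulk.

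The Slit and Robo pair did not pass. ROBO1, a receptor of Slits, stood at 2.29, 6.85 and 6.93 CPM in LSC, against 5.99, 6.10 and 21.4 CPM in bulk. Bulk replicate 3 lay above all other libraries, and mouse 2 moved slightly the other way. The change of -0.95 (SE 0.65) had a limma adjusted p of 0.449, and 0.182 with the block. SLIT3, a Slit ligand, was at 0.813 to 1.78 CPM in LSC and 1.34 to 2.40 CPM in bulk, a change of -0.51 with a 95% interval of -2.13 to 1.11.

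UNC5CL and UNC50 were both wholly higher in LSC. UNC5CL, a death domain protein known to act on NF-kB signalling, rose to 4.73, 6.78 and 13.1 CPM in LSC, against 1.20, 1.44 and 0.576 CPM in bulk. Mouse 3 held the highest LSC and the lowest bulk value. The log2 change was 2.88 (SE 0.64, limma adjusted p = 0.0398). That call was lost on leaving out any single library or any mouse, at changes of 2.09 to 3.34 and adjusted p of 0.0675 to 0.182, with voom (0.0736) and with eBayes without trend (0.0518). UNC50 stood at 13.7, 26.4 and 22.9 CPM in LSC, against 5.48, 8.21 and 12.7 CPM in bulk, and its change of 1.28 passed with the block only (limma adjusted p = 0.148 without it, 0.0272 with it).

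Members also varied between mice. For 14 of 29 members the mouse took a larger share of the variance of log2 CPM than the population. These are shares of sums of squares, and 3 mice would by chance take more than 2 populations. LSC was higher than bulk in all 3 mice for 15 members and lower in all 3 for SEMA4B and PLXND1, against 27.3% of all genes tested higher and 25.8% lower in every mouse. The other 12 members differed in direction between mice. In the deposited table the authors' false discovery rate was 0.0813 for each of EPHA2, EPHB1, PLXNA4 and NRP1, and 4 of 29 members were under 0.1 there, all higher in LSC. This was the lowest rate in the authors' deposited table, where 0 genes were under 0.05. Over all genes the authors' deposited table held 0.741% higher and 0.0576% lower at that rate. That table rests on the libraries used here and is no separate support.

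Genes of guidance signalling were followed through lists for Eph receptors, plexins, Robo receptors, and netrin and RGM receptors. Of the last group, DCC, neogenin and the UNC5 receptors were themselves not analysed here. The lists also hold surface proteins, among them CD72, MET, ERBB2, ITGB1, BMPR2 and ADAM10. Of 83 signalling genes tested, 4 were higher in LSC and 2 lower, against 2.71% and 1.33% of all genes, and their median log2 change was -0.19. With the block 11 were higher and 12 lower, against 8.25% and 7.71% of all genes. Of 24 Eph signalling genes 2 rose and none fell, and of 27 plexin signalling genes 1 rose. Of 16 Robo signalling genes 0 passed in limma without the block or in voom. At an unadjusted p under 0.05, 2 Robo signalling genes were higher and 3 lower, beside 1402 and 1383 of all 13755 genes tested. Of 16 genes of the netrin and RGM list 1 rose and 2 fell. With the block the counts of higher and lower genes were 3 and 2, 3 and 4, 1 and 3, and 4 and 3 in the same order.

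PTPRO, a receptor phosphatase known to dephosphorylate Eph receptors, rose to 15.7, 19.0 and 19.7 CPM in LSC, against 2.40, 3.05 and 3.90 CPM in bulk. The rise was 2.55 on the log2 scale (SE 0.40, limma adjusted p = 0.0101), and its call was lost without mouse 1 or mouse 2 (adjusted p = 0.133 and 0.105). SRC, a kinase downstream of many receptors, was at 9.31, 12.7 and 10.9 CPM in LSC, against 1.03, 3.98 and 1.54 CPM in bulk. It rose by 2.55 (SE 0.58, limma adjusted p = 0.0435), and that call was lost without any single library other than bulk replicate 2 and without any mouse, at changes of 2.13 to 2.99 and adjusted p of 0.0867 to 0.260. Other settings that ended it were scaling to reads outside MTRNR2L, voom and eBayes without trend (0.0514, 0.0517 and 0.0731).

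DPYSL2, the collapsin response mediator CRMP2 of semaphorin signalling, rose to 257, 119 and 119 CPM in LSC, against 52.2, 57.0 and 51.9 CPM in bulk. LSC replicate 1 stood apart from the other LSC libraries. DPYSL2 changed by 1.52 (SE 0.35, limma adjusted p = 0.0445), and the call was lost on leaving out any single library or mouse (changes of 1.13 to 1.74, adjusted p of 0.0520 to 0.284), with voom (0.0523) and with eBayes without trend (0.120). PRKCA, a protein kinase C, rose to 115, 84.3 and 70.5 CPM in LSC, against 26.2, 27.1 and 22.8 CPM in bulk. PRKCA changed by 1.80 (SE 0.30, limma adjusted p = 0.0131), a call lost without LSC replicate 1, mouse 1 or mouse 2 (changes of 1.61 to 1.88, adjusted p of 0.0511 to 0.180) and with eBayes without trend (0.0531).

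The lower genes were MAPK3, the kinase ERK1, and ABLIM1, an actin-binding protein. MAPK3 stood at 1.18, 1.65 and 0.365 CPM in LSC, against 5.99, 8.30 and 12.7 CPM in bulk, and ABLIM1 at 0.665, 2.98 and 2.26 CPM, against 9.93, 8.89 and 17.4 CPM. Their changes were -3.23 (SE 0.69, limma adjusted p = 0.0344) and -2.79 (SE 0.64, adjusted p = 0.0461). Both calls were lost without any single library other than LSC replicate 2 and without any mouse, at adjusted p of 0.0649 to 0.185 for MAPK3 and 0.0767 to 0.224 for ABLIM1. Changes then ran from -3.69 to -2.32 for MAPK3 and from -3.40 to -2.14 for ABLIM1. Without mouse 1, 2 or 3, 0, 8 and 74 of all genes tested were lower, beside 183 with all libraries. A call lost on leaving out a mouse is therefore not particular to these genes. The calls also ended with eBayes without trend (0.0567 and 0.0798), MAPK3 under a filter of 5 CPM (0.0508) and ABLIM1 with scaling to reads outside MTRNR2L (0.0573).

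Another 9 of the 16 signalling genes named by rule did not pass in the fit without the block and passed with it. Of these, MAGED1 (adjusted p = 0.0525 without the block), FHL1 and ARHGEF11 also passed in 9, 2 and 1 other alternative settings. Higher with the block were VAV2, MAGED1, FHL1, FARP2 and SRGAP2, with changes of 1.17 to 2.07. Lower with it were ITSN1, ARHGEF11, PFN1 and SRGAP3, with changes of -3.49 to -1.14. SRGAP2 and SRGAP3, GTPase-activating proteins that bind Robo receptors, changed in opposite directions with the block (adjusted p = 0.0211 and 0.0320). SRGAP2 stood at 85.3, 51.2 and 82.1 CPM in LSC, against 25.3, 32.9 and 37.7 CPM in bulk, and SRGAP3 at 2.00, 6.91 and 0.0729 CPM in LSC, against 16.9, 13.2 and 8.19 CPM in bulk. ENAH, an actin regulator, passed in neither fit, at a change of 1.03 (limma adjusted p = 0.200 and 0.0773).

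**Figure D4:**
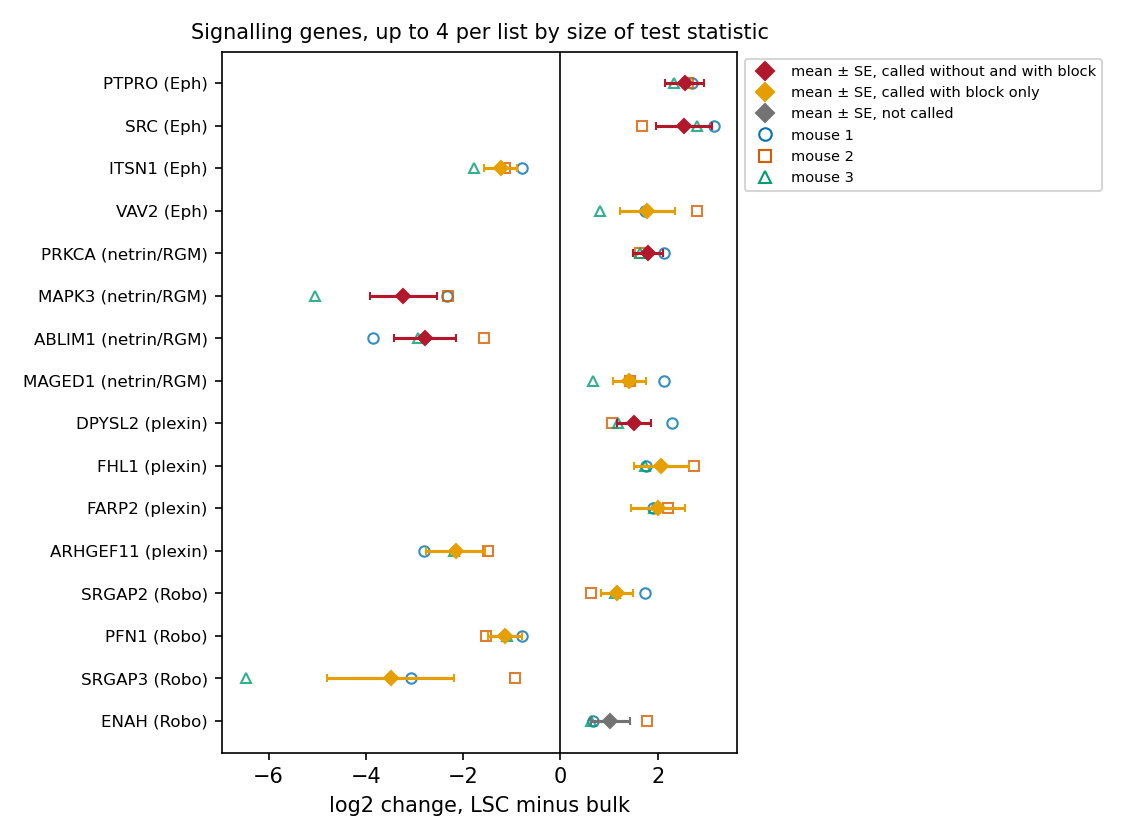
Log2 change of LSC minus bulk (horizontal axis) for the 16 signalling genes with the largest test statistics, 4 from each list (vertical axis). Filled diamonds are the change ± SE of the limma fit without the block, colored by the call, and open symbols are single mice. PTPRO, SRC, PRKCA and DPYSL2 lie to the right and MAPK3 and ABLIM1 to the left of 0 in every mouse.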

How the data were processed

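RNA of 3 LSC and 3 bulk libraries was amplified with a NuGEN Ovation kit, per the labels' protocols. Bowtie2, RSEM, edgeR and the build hg19 are named in the submitters' processing notes. Sample values deposited by the authors are log2 CPM with a prior, seen as a floor of 0.0197 CPM common to all 6 columns. Per the file headers, the authors also gave a log2 fold change (signed bulk minus LSC), a p-value, a false discovery rate and a likelihood ratio score for each gene. Subtracting the floor and dividing by the smallest step gave reads, whole within 0.1 for 100% of values. These reads give the CPM printed here.

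Genes at 1 CPM or more in at least 3 libraries were tested (13755 of 13892) with limma 3.58.1 in R 4.3.3 (two-sided, with trend and no block) on log2 values as deposited, with Benjamini-Hochberg adjustment over all genes tested and a threshold of 0.05. The recovered reads entered voom as an alternative, and no negative binomial model was fitted. The labels pair same-numbered libraries by mouse, and within a pair the deviations from population means had correlations of 0.33, 0.35 and 0.30 over genes. For members and the named signalling genes the block result is given where it changes a call. For cell type markers it is not always given. Among these, CD36 was higher and LYZ lower with the block only (limma adjusted p = 0.00688 and 0.00530). With 3 against 3, an exact permutation test cannot go below 0.1. Fitting was tested on simulated reads. Alternatives numbered 21: 3 pseudocounts, 2 filters, 3 scalings, 3 variance models, the block, and leaving out each library or mouse.

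Named genes are all 29 members (library by library if called in either fit or at a mean of 10 CPM or more in a population, which holds for 16), up to 4 signalling genes per list with the largest test statistic, and others chosen after their values were seen. Members and lists were chosen with earlier results of these data known. Coordinates and sequences are not given, since human reference sequence was not used here.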

Additional observations from a re-analysis of the deposited data

How the results depend on the processing

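The count of members higher in LSC, 6, was 5 or 6 under the pseudocounts, filters, scalings, array weights and voom, 9 with the replicate block that pairs libraries by mouse, and 3 with eBayes without trend. Leaving out a library or a mouse gave 2 to 5 members higher and 0 lower. Calls over all genes moved too, from 373 higher and 183 lower to 197 and 54 with eBayes without trend. With the block they were 1135 and 1060. Without a single library they were 168 to 346 higher and 38 to 169 lower. Without mouse 1, 2 or 3 they were 37, 85 and 252 higher and 0, 8 and 74 lower. Whether members lost calls more often than other genes was not tested. No member was lower in any setting other than the replicate block, which gave 1. Signalling genes higher in LSC, 4 without the block, numbered 11 with the mouse as a block, 2 with voom and 1 with eBayes without trend. Those lower, 2 without the block, numbered 12 with it, 1 under a filter of 5 CPM, 1 with scaling to reads outside MTRNR2L and 0 with eBayes without trend. Leaving out a library or a mouse gave 0 to 4 signalling genes higher and 0 to 2 lower. Changes that turned negative, none of them called, were those of SEMA4A, PLXNC1 and EPHA1-AS1. SEMA4A was at -0.010 under quantile normalization and at -0.16 to 0.50 on leaving out a library (negative without LSC replicate 1, bulk replicate 1 or bulk replicate 3), with -0.22 and -0.091 without mouse 1 or 3. PLXNC1 was at -0.0016 under upper-quartile rescaling and at -0.081 to 0.18 on leaving out a library (negative without LSC replicate 3 or bulk replicate 2), with -0.10 without mouse 3. EPHA1-AS1 was at -0.13 to 0.95 on leaving out a library, and was negative without LSC replicate 3 alone. The cause was not tested. UNC5CL was not tested under the filter of 5 CPM.

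Fitted changes of EPHA2, EPHB1, PLXNA4 and NRP1 depend on the prior, and were 2.49, 2.66, 3.68 and 3.12 at a pseudocount of 5 CPM. Bulk replicate 1 limits what can be read of low members, since 3 reads there are 0.514 CPM.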

Other observations

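SNAP25, a vesicle fusion protein of neurons, and DCX, a microtubule protein of young neurons, were the 2 neural markers analysed. SNAP25 stood at 2.81, 3.87 and 2.19 CPM in LSC replicates 1, 2 and 3, against 0, 0 and 0.0640 CPM in bulk (limma adjusted p = 0.0398). DCX stood at 3.03, 2.09 and 3.06 CPM in LSC, against 3.25, 2.20 and 2.62 CPM in bulk, with a log2 change of 0.016 (adjusted p = 0.991). SNAP25 had 1 read over the bulk libraries, passed the filter through the LSC libraries alone and so had to differ. SNAP25 is named after its values were seen. Of the 4 endothelial markers, PECAM1, an adhesion molecule also found on leukocytes, stood at 64.3, 79.8 and 83.6 CPM in LSC, against 57.5, 87.2 and 89.0 CPM in bulk. ERG, a transcription factor of endothelium and of blood progenitors, stood at 18.5, 37.1 and 4.01 CPM in LSC, against 72.3, 80.6 and 94.0 CPM in bulk, and was lower in the blocked fit (limma adjusted p = 0.0164) but did not pass in the unblocked one (0.0769). EMCN, a sialomucin of endothelium and of some blood stem cells, stood at 2.96, 5.01 and 3.57 CPM in LSC, against 1.03, 1.86 and 3.01 CPM in bulk, and was higher in 3 of 3 mice with overlapping groups (log2 change 1.06, adjusted p = 0.367). FLT1, a VEGF receptor, stood at 16.3, 30.4 and 9.55 CPM in LSC, against 13.9, 10.4 and 25.1 CPM in bulk (log2 change 0.13, adjusted p = 0.909).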
